A study of Bos taurus with 18 samples.

Results

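The transcripts described here are taken to be those of the bovine mitochondrial genome, by their place in the run of Ensembl cow gene ids from ENSBTAG00000043544 to ENSBTAG00000043584. The table listed 40 of the 41 ids in this run, out of 27270 genes. It was made from 18 pools of blastocysts, each of 10 embryos collected at 8 days post insemination (dpi). The oocytes came from follicles of 2 to 4 mm on slaughterhouse ovaries and were matured in vitro (IVM) for 22 h before fertilization and culture without further treatment. During IVM the medium held an equal volume of RNase-free water (control, labelled untreated, 4 pools), miR-34c mimic (5 pools), negative control (NC) mimic (3 pools), miR-34c inhibitor (3 pools) or NC inhibitor (3 pools). A mimic is a synthetic duplex that carries the miRNA strand, an inhibitor pairs with that strand and blocks it, and the NC molecules carry sequences unrelated to it. The treatment was thus given to the oocyte and its cumulus cells, and the RNA was measured in the embryo several cell cycles later. Nothing in the labels says whether pools of one treatment came from separate collections, so the p-values measure the spread between these pools, which may be technical.

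Mitochondria carry their own small circular genome, which is inherited through the oocyte. It is transcribed from both strands as long precursors that are cut into ribosomal RNAs, transfer RNAs and messenger RNAs for core subunits of the respiratory chain and the ATP synthase. The ribosomal RNAs and most of the messenger RNAs receive short poly(A) tails, while the transfer RNAs are short and end in CCA. In cattle embryos the mitochondria inherited from the oocyte are shared out among the cells during cleavage, and mitochondrial activity rises towards the blastocyst stage, when the trophectoderm pumps fluid into the cavity. These sentences are background and no result of the pools.

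The RefSeq gene table used here lists 37 genes on the bovine mitochondrial genome, which are 13 protein-coding genes, 2 ribosomal RNAs and 22 transfer RNAs. The table of the pools gives Ensembl ids only, and 0 of 37063 RefSeq rows carried one. No id could therefore be paired with a gene name, and since the 40 ids outnumber the RefSeq genes by 3, some of them may not be mitochondrial genes of that table. All 40 were kept and are called by their ids. For the same reason their lengths and functions are not given, levels per length were not computed, and the embryo markers and the nuclear genes of the respiratory chain were not analysed here.

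The 40 ids fell into 2 kinds by count. There were 15 ids with at least 437 counts in every pool, here called the abundant ids, and 25 ids with at most 70 counts in any pool, here called the sparse ids. The number 15 equals that of ribosomal RNA and protein-coding genes in RefSeq, but which id is which gene was not resolved. None of the 40 was at 0 in every pool. The total count per pool ranged from 2063863 to 4071640, and 1 pool with no count of a gene can have held up to 3 counts of it, which is at most 0.000145% of a library. Such limits cover counting error only. On the first principal component of the other genes, described further below, control replicate 1 and miR-34c mimic replicate 2 stood apart from the other pools of their treatments, and the miR-34c inhibitor pools lay far from each other.

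The mitochondrial ids took from 6.71% to 13.5% of a library, and the range of each treatment overlapped those of all the others. The share of the total count was 12.6%, 9.39%, 8.75% and 8.51% in control replicates 1 to 4. In the miR-34c mimic pools it was 8.74%, 13.2%, 12.2%, 8.87% and 7.15%. In the NC mimic pools it was 7.08%, 7.72% and 10.5%. Each of these 3 groups held at least 1 pool above 10% and at least 1 below 9%. The miR-34c inhibitor pools had 13.5%, 6.71% and 10.4%, which are both the highest and the lowest share of all 18 pools. The NC inhibitor pools had 13.1%, 10.8% and 9.96%. The mean share was 9.81% ± 1.88 (SD, n = 4) in the control, 10.0% ± 2.55 (SD, n = 5) with miR-34c mimic and 8.43% ± 1.81 (SD, n = 3) with NC mimic. With miR-34c inhibitor it was 10.2% ± 3.42 (SD, n = 3), and with NC inhibitor 11.3% ± 1.6 (SD, n = 3). The 95% Wilson interval of a single pool was at most 0.0894 percentage points wide. It takes each count as an independent molecule, and whether the counts are of deduplicated reads is not given in the sources used here. In pooled embryos, fewer mitochondria, fewer transcripts in each of them and more RNA from the rest of the cell cannot be told apart.

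**Figure D1:**
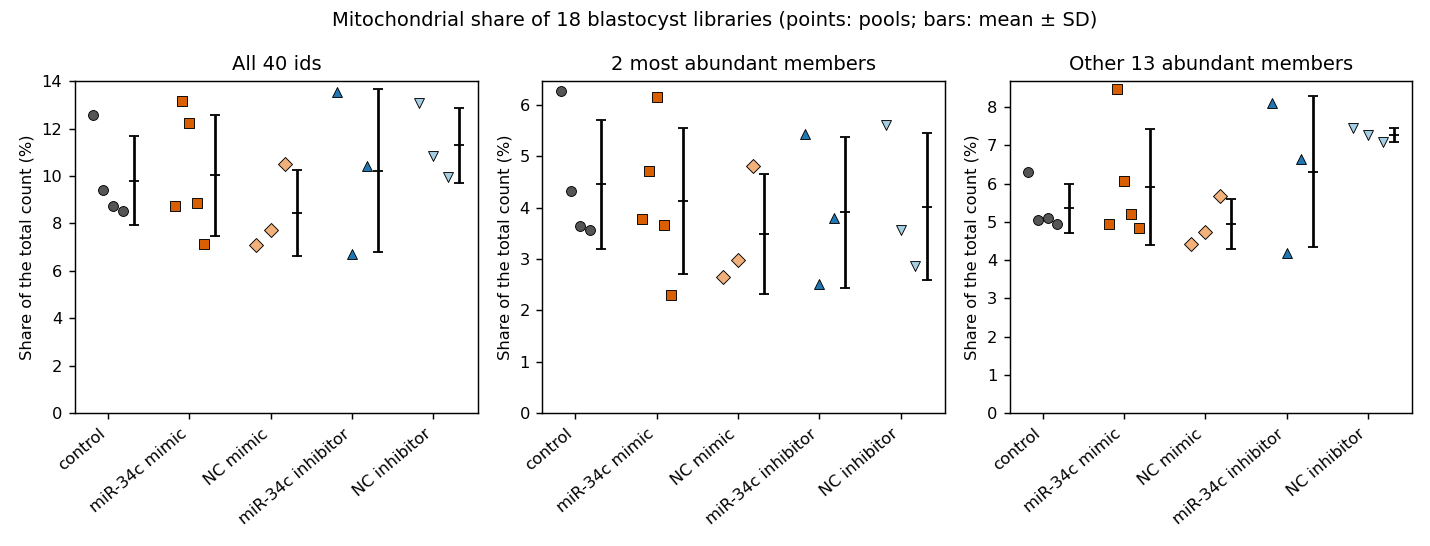
Share of the total count of each of the 18 pools (y axes, percent, from 0) taken by all 40 mitochondrial ids, by the 2 most abundant ids and by the other 13 abundant ids, with 1 point per pool and the mean ± SD of each treatment (n = 3 to 5). The treatments overlap in the first and second panels, and in the third the NC inhibitor pools lie between 7.09% and 7.44%, above the 4 control pools.

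The mitochondrial ids made up a large part of the most abundant transcripts. Between 4 and 7 of the 10 most abundant genes of a pool were among them, and between 10 and 13 of the 50 most abundant. Together these first 10 genes held between 7.46% and 13.98% of a library. With the mitochondrial ids left out, the 10 most abundant of the other genes took from 4.64% to 6.17%. The range among pools was therefore narrower for the other genes than for the whole list.

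By mean count over the 18 pools, ENSBTAG00000043567 and ENSBTAG00000043570 were the most abundant pair, and each ranked among the first 3 genes of every pool. So did ENSBTAG00000043561, which had more counts than either of them in NC inhibitor replicates 2 (78620 against 70102 and 58921) and 3 (55828 against 38126 and 35436). ENSBTAG00000043567 took 2.28% ± 0.729 of the total count (SD, n = 18 pools) and ENSBTAG00000043570 took 1.76% ± 0.511 (SD, n = 18 pools). Of all mitochondrial counts they held 22.6% and 17.5% on average. The ratio of the first to the second stayed between 1.08 and 1.52 over the 18 pools, so both were high or low in the same pools. Their summed share was 3.56% to 6.26% in the control pools, 2.31% to 6.15% with miR-34c mimic and 2.65% to 4.81% with NC mimic. It was 2.51% to 5.43% with miR-34c inhibitor and 2.86% to 5.61% with NC inhibitor. All 5 treatments overlapped.

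The other 13 abundant ids, in a split that was not planned and rests on the counts of these pools, showed a different layout. Their summed share was 6.31%, 5.06%, 5.09% and 4.95% in control replicates 1 to 4 and 7.44%, 7.28% and 7.09% in NC inhibitor replicates 1 to 3. Every NC inhibitor pool was thus above every control pool, and the SD of the NC inhibitor group was 0.175 percentage points (n = 3). The 13 ids went both ways. ENSBTAG00000043561 alone had 2.17% to 2.27% of the total count with NC inhibitor and 1.11% to 1.96% in the control. ENSBTAG00000043559, ENSBTAG00000043564 and ENSBTAG00000043568 were lower in every NC inhibitor pool than in every control pool. Among single genes tested, 18.6% were higher with NC inhibitor without overlap, which is no baseline for a sum over 13 ids. On the first principal component of the other genes the NC inhibitor pools had scores from -44.3 to -39.7, control replicate 1, the nearest control pool in this sum, had -36.7, and the other control pools had 29.9 to 44.8. The part of that component in the difference was not tested. With miR-34c inhibitor the same sum was 8.1%, 4.2% and 6.63%, which spans both of those groups. It ranged from 4.84% to 8.46% with miR-34c mimic, the highest value being that of replicate 2, and from 4.43% to 5.68% with NC mimic.

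ENSBTAG00000043561 was the most abundant of these 13, with 1.58% ± 0.508 of the total count (SD, n = 18 pools) and 15.7% of the mitochondrial counts on average. It was followed by ENSBTAG00000043560 (0.686% ± 0.176 of the total count), ENSBTAG00000043556 (0.573% ± 0.0777) and ENSBTAG00000043550 (0.497% ± 0.0977). ENSBTAG00000043571, ENSBTAG00000043584, ENSBTAG00000043558 and ENSBTAG00000043577 had mean shares between 0.362% and 0.409%. ENSBTAG00000043568, ENSBTAG00000043564 and ENSBTAG00000043563 lay between 0.271% and 0.286%. ENSBTAG00000043559 had 0.161% and ENSBTAG00000043546, the lowest of the abundant ids, 0.0385%. These levels were not divided by length, and their order describes counts only.

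**Figure D2:**
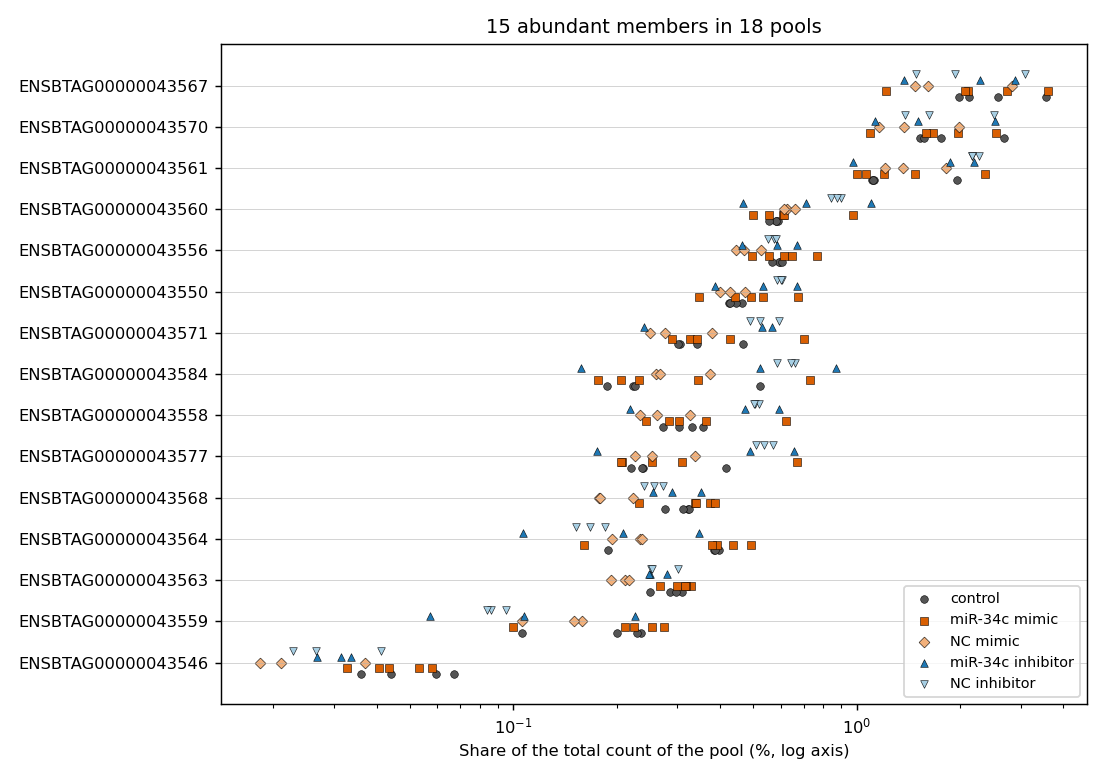
Share of the total count (x axis, percent, log scale) of each of the 15 abundant ids (y axis) in the 18 pools, with colour and marker giving the treatment. ENSBTAG00000043567 reaches 3.61% in 1 pool, ENSBTAG00000043546 reaches at most 0.067%, and the NC mimic pools lie lowest for ENSBTAG00000043563.

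The abundant ids differed in how much they varied among pools. ENSBTAG00000043556 was the steadiest by the coefficient of variation (CV) of its share, with a CV of 13.6% over the 18 pools and a highest share 1.72 times the lowest. Its share was 0.597%, 0.594%, 0.605% and 0.566% in control replicates 1 to 4 and 0.574%, 0.582% and 0.553% with NC inhibitor. With miR-34c mimic it was 0.614%, 0.765%, 0.648%, 0.557% and 0.497%, with NC mimic 0.446%, 0.471% and 0.525%, and with miR-34c inhibitor 0.669%, 0.465% and 0.585%. The NC mimic pools were thus below all control pools, and miR-34c mimic replicate 2 was the highest. ENSBTAG00000043563 followed with a CV of 14.6%. The most variable was ENSBTAG00000043584, with a CV of 55.7% and a highest share 5.52 times the lowest. On log2 CPM values the SD of ENSBTAG00000043584 was 0.72, at percentile 87.6 of the 11082 genes tested, and that of ENSBTAG00000043556 was 0.21, at percentile 6.43. On this log scale ENSBTAG00000043559 (SD 0.77, percentile 90.2) and ENSBTAG00000043564 (SD 0.73, percentile 88) varied more than ENSBTAG00000043584. The median SD was 0.41 for the 15 abundant ids and 0.44 for all genes tested. The genes were not matched to the ids by level, so these SDs and percentiles do not compare genes of like abundance.

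**Figure D3:**
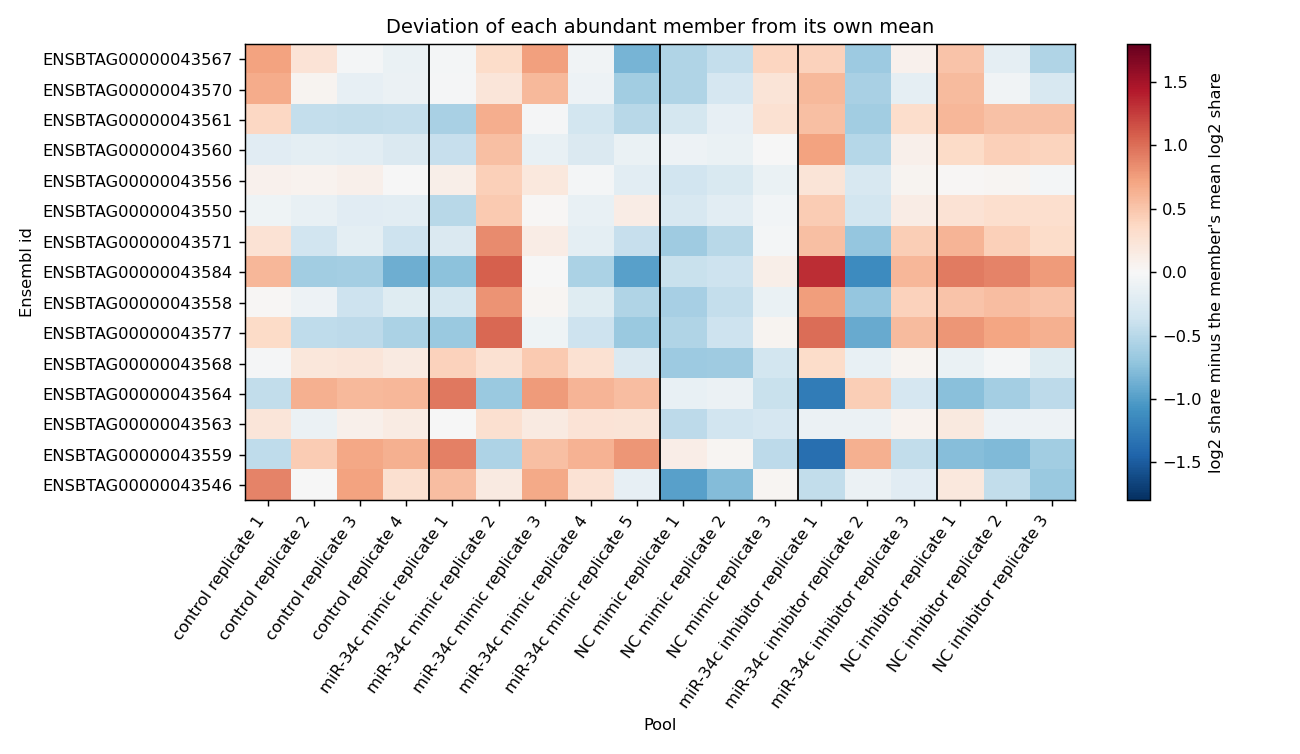
Deviation of the log2 share of each abundant id (rows, by mean share) from its own mean over the 18 pools (columns, by treatment, black lines between treatments), red for higher and blue for lower. ENSBTAG00000043564 and ENSBTAG00000043559 are blue in control replicate 1, miR-34c mimic replicate 2, miR-34c inhibitor replicates 1 and 3 and the NC inhibitor pools, where ENSBTAG00000043584, ENSBTAG00000043577 and ENSBTAG00000043561 are red. NC mimic replicate 3 goes the same way, with ENSBTAG00000043584 and ENSBTAG00000043577 close to their means.

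The mix of mitochondrial transcripts differed from pool to pool, with some ids high where others were low. ENSBTAG00000043564, ENSBTAG00000043559 and ENSBTAG00000043577 were set beside ENSBTAG00000043584 after their values were seen. ENSBTAG00000043584 had 0.524%, 0.223%, 0.226% and 0.187% of the total count in control replicates 1 to 4, and ENSBTAG00000043564 had 0.188%, 0.398%, 0.385% and 0.387%. Control replicate 1 was thus the highest of its group for the first and the lowest for the second. In the miR-34c mimic pools ENSBTAG00000043584 had 0.206%, 0.729%, 0.344%, 0.233% and 0.176%, and ENSBTAG00000043564 had 0.493%, 0.161%, 0.435%, 0.391% and 0.378%. Here replicate 2 stood at the opposite ends. In the miR-34c inhibitor pools ENSBTAG00000043584 had 0.868%, 0.157% and 0.522%, and ENSBTAG00000043564 had 0.107%, 0.347% and 0.208%. These 3 pools hold the highest and the lowest share of ENSBTAG00000043584 in the series. The NC inhibitor pools were alike, with 0.661%, 0.643% and 0.587% of ENSBTAG00000043584 and 0.152%, 0.167% and 0.185% of ENSBTAG00000043564. The NC mimic pools lay between, with 0.261%, 0.268% and 0.373% against 0.234%, 0.237% and 0.194%.

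The count ratio of ENSBTAG00000043584 to ENSBTAG00000043564 needs no library total. It ranged from 0.419 in miR-34c mimic replicate 1 to 8.14 in miR-34c inhibitor replicate 1. In 8 pools it lay between 0.419 and 0.791, and in the other 10 between 1.11 and 8.14. The 8 pools were control replicates 2, 3 and 4, miR-34c mimic replicates 1, 3, 4 and 5 and miR-34c inhibitor replicate 2, so that the 2 sides crossed 3 of the 5 treatments. By treatment, the ratio was 3.17 to 4.35 with NC inhibitor, 1.11 to 1.92 with NC mimic, 0.453 to 8.14 with miR-34c inhibitor, 0.419 to 4.54 with miR-34c mimic and 0.483 to 2.78 in the control. The first principal component of log2 CPM, computed from 11090 genes without any mitochondrial id, held 50.1% of the variance. The pools with the lower ratios had scores from 16.4 to 51.7 on it, and the other 10 had scores from -68.8 to 9.11. The 2 sets of pools, cut at a ratio of 1, thus did not overlap on the main axis of the other genes. Neither measure had its widest step at that cut. The scores stepped from 9.11 to 16.4 there and from -13.3 to 4.12 within the 10 pools. The ratio stepped from 0.791 to 1.11 there and from 1.13 to 1.92 within the 10. The total count ranged from 2063863 to 3197174 in the 8 pools and from 2250236 to 4071640 in the 10. MiR-34c mimic replicate 2, NC mimic replicate 3, miR-34c inhibitor replicate 3 and NC inhibitor replicates 1 and 2 lay above all of the 8. The number of genes detected ranged from 13770 to 14701 in the 8 and from 14341 to 15491 in the 10. Of the 10, all but NC mimic replicate 1 (14616) and miR-34c inhibitor replicate 1 (14341) had more genes detected than any of the 8. The ranges thus overlapped, but both measures tended to be higher in the 10. The part of depth, RNA quality and embryo make-up in this pattern was not tested.

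**Figure D4:**
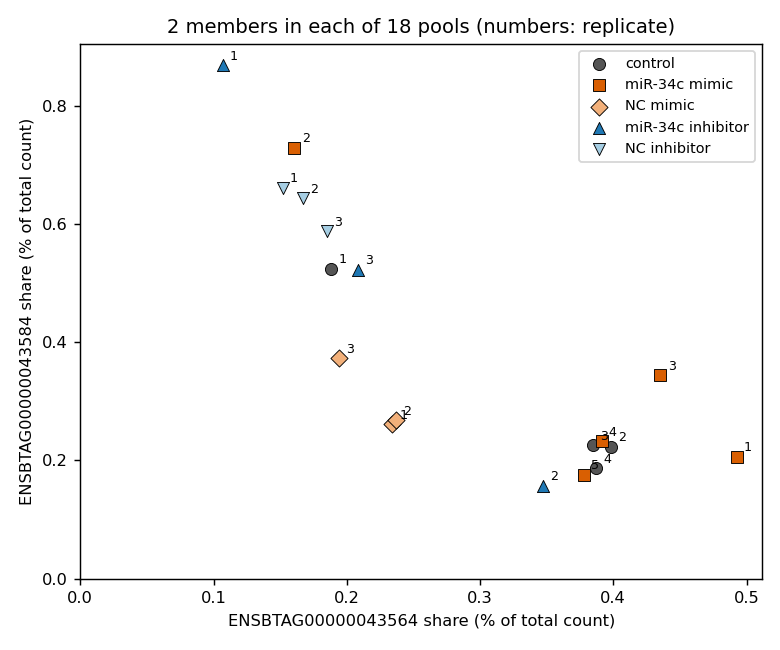
Share of ENSBTAG00000043584 (y axis, percent of the total count) against that of ENSBTAG00000043564 (x axis, percent of the total count) in each of the 18 pools, with marker for treatment and the replicate number beside each point. Pools below 0.25% on the x axis reach up to 0.868% on the y axis, and the 8 pools with at least 0.347% of ENSBTAG00000043564 have at most 0.344% of ENSBTAG00000043584.

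Other pairs kept their proportion in the same pools. The count ratio of ENSBTAG00000043559 to ENSBTAG00000043564 stayed between 0.487 and 0.675 over the 18 pools, although the share of each differed more than 4.6-fold between its highest and lowest pool. The ratio of ENSBTAG00000043584 to ENSBTAG00000043577 stayed between 0.847 and 1.32. ENSBTAG00000043559 and ENSBTAG00000043564 were therefore low together where ENSBTAG00000043584 and ENSBTAG00000043577 were high together.

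Whether any treatment changed a mitochondrial transcript was tested with edgeR's quasi-likelihood F test, fitted on all 18 pools and adjusted by Benjamini-Hochberg over the 11082 genes that passed the filter on low counts. These included the 15 abundant and 9 of the 25 sparse ids. Across the 5 treatments together, 0 of the 24 mitochondrial ids passed an adjusted P of 0.05, where 0.018% of all genes did. At an unadjusted P under 0.05 there were 5 of the 15 abundant ids, against 12.1% of all genes. The smallest adjusted P among the 15 was 0.397, for ENSBTAG00000043563 and ENSBTAG00000043568. Leaving out miR-34c inhibitor replicate 2 gave 9 of the 15 at the unadjusted threshold, against 25.2% of all genes in that fit, and leaving out miR-34c mimic replicate 2 gave 8, against 24.8%. With DESeq2, 3 of the 15 passed the adjusted threshold, where 0.875% of all genes did. With limma voom and sample quality weights it was 12 of the 15, where 48.4% of all genes passed.

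Between-treatment spread was uneven among the ids. The treatment held 87.7% of the variance of log2 CPM of ENSBTAG00000043563 and 72.2% of that of ENSBTAG00000043568. It held 15.8% and 12.3% for ENSBTAG00000043567 and ENSBTAG00000043570. The median was 31.9% over the 15 abundant ids and 29.1% over all genes tested.

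An id was called differentially expressed (DE) between a pair of treatments where its adjusted P was below 0.05 and its fold change was 2 or more in either direction. With edgeR, 0 of the 24 mitochondrial ids were DE in each of the 7 pairwise comparisons, as were 0% of all genes. Their counts at an unadjusted P under 0.05 follow with each comparison. With DESeq2 at least 1 of the 15 abundant ids was DE in 2 of the 7 comparisons and with limma voom in 5, and the counts stand below beside the share of all genes in the same fit. In miR-34c mimic against NC mimic, which asks what the miR-34c sequence adds to a double-stranded RNA, 5 of the 15 abundant ids had an unadjusted P under 0.05 and all 5 were higher with miR-34c mimic. Of all genes, 7.58% passed that threshold, 3.04% higher and 4.54% lower. Without NC mimic replicate 1 the count was 3 of the 15, against 4.07% of all genes in that fit. The median log2 fold change was 0.43 for the 15 ids and 0.01 for all genes tested. All 15 values were above 0, as were 50.69% of those of all genes. The 15 ids were measured in the same pools and are not independent of each other. The smallest value was that of ENSBTAG00000043561, with 0.02 ± 0.26 (SE), and its mean share with miR-34c mimic was 0.972 times that with NC mimic.

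ENSBTAG00000043563 and ENSBTAG00000043568 had the smallest P in this comparison. ENSBTAG00000043563 had 0.267%, 0.329%, 0.299%, 0.319% and 0.315% of the total count in the miR-34c mimic pools and 0.193%, 0.211% and 0.218% in the NC mimic pools. The groups did not overlap, and the log2 fold change was 0.63 ± 0.14 (SE, adjusted P = 0.293 in edgeR). ENSBTAG00000043568 had 0.374%, 0.339%, 0.388%, 0.339% and 0.233% with miR-34c mimic and 0.178%, 0.179% and 0.223% with NC mimic. Its groups did not overlap either, with a log2 fold change of 0.87 ± 0.19 (SE, adjusted P = 0.293 in edgeR). Over 17 alternative fits the adjusted P ranged from 7.19e-08 to 0.987 for ENSBTAG00000043563 and from 0.00109 to 0.987 for ENSBTAG00000043568, and neither was DE in any of them. The 1 abundant id that limma voom called DE here was ENSBTAG00000043546, where 2.92% of all genes were. Shares without overlap and higher with miR-34c mimic were found for these 2 of the 15 ids and for 1.67% of all genes, and lower for 0 of the 15 and 4.94% of all genes. ENSBTAG00000043546, ENSBTAG00000043556 and ENSBTAG00000043564 made up the other 3 of the 5, with log2 fold changes of 0.92 ± 0.28, 0.43 ± 0.15 and 0.84 ± 0.38 (SE) and adjusted P of 0.409, 0.499 and 0.631 in edgeR.

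The same NC mimic pools were also the lower group against the control. Of the 15 abundant ids, 4 had an unadjusted P under 0.05 and all 4 were lower with NC mimic, where 8.05% of all genes passed, 3.51% lower and 4.54% higher. ENSBTAG00000043563 had 0.311%, 0.249%, 0.285% and 0.297% of the total count in the control pools, all above the NC mimic pools, with a log2 fold change of -0.54 ± 0.14 (SE, adjusted P = 0.479 in edgeR). ENSBTAG00000043568 had 0.276%, 0.322%, 0.325% and 0.313% in the control pools, also above the NC mimic pools, with -0.76 ± 0.19 (SE, adjusted P = 0.479 in edgeR). For ENSBTAG00000043546 the control pools had 0.067%, 0.0359%, 0.0596% and 0.044% and the NC mimic pools 0.0183%, 0.0211% and 0.0371%. NC mimic replicate 3 lay within the control range, and the log2 fold change was -1.08 ± 0.29 (SE, adjusted P = 0.479 in edgeR). This id was DE with DESeq2 (-1.12, adjusted P = 0.0489), where 0.0361% of all genes were, and with limma voom (-1.13, adjusted P = 0.0107), where 2.39% were. Over 16 alternative fits its adjusted P ranged from 0.0107 to 0.976. Shares without overlap were found for 3 of the 15 ids lower with NC mimic (3.2% of all genes) and 1 higher (8.51% of all genes). Both comparisons rest on the same 3 NC mimic pools and are not independent.

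MiR-34c mimic against the control gave 0 of the 15 abundant ids at an unadjusted P under 0.05, where 1.44% of all genes had one, 0.568% higher and 0.875% lower. The log2 fold changes of the 15 ids lay between -0.16 and 0.24, and no id was without overlap, against 0.208% of genes higher and 0.189% lower.

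**Figure D5:**
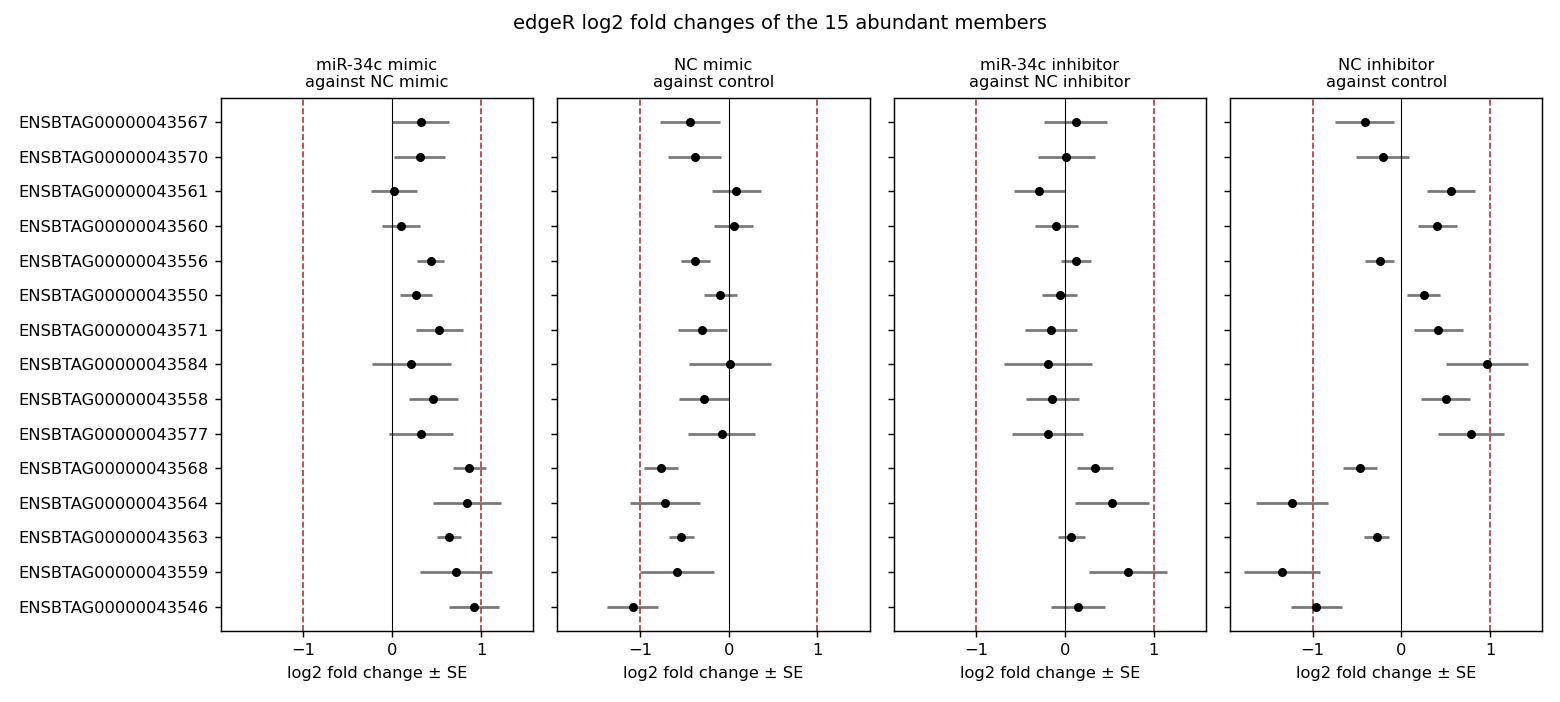
Log2 fold change ± SE (x axes) of the 15 abundant ids (y axis, by mean share) in 4 comparisons from the edgeR fit of all 18 pools, with dashed lines at -1 and 1. All 15 points, which are not independent, lie above 0 for miR-34c mimic against NC mimic, where 50.69% of all genes tested do. For NC inhibitor against control they spread from -1.34 to 0.97.

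The NC inhibitor pools against the control gave the widest spread of fold changes among the mitochondrial ids. Of the 15 abundant ids, 2 were higher and 4 lower at an unadjusted P under 0.05, where 26.7% of all genes passed, 9.64% higher and 17% lower. With median-of-ratios size factors, or with library sizes taken without the mitochondrial ids, 0 were higher and 4 lower (26.7% and 26.4% of all genes passed), and without NC inhibitor replicate 3, control replicate 3 or control replicate 4 it was 0 higher and 3 lower (18.2% to 20.4% of all genes passed in these 3 fits). Leaving out NC inhibitor replicate 1, NC inhibitor replicate 2 or control replicate 2 gave 0 higher and 4 lower (17.1% to 19.5% of all genes), so that the 2 higher ids were lost in 6 of the 7 fits without 1 pool. Without control replicate 1 it was 3 higher and 4 lower, where 40.3% of all genes passed. With only these 2 groups in the fit 6 were higher and 4 lower, where 32.4% of all genes passed, and with limma voom 6 higher and 6 lower, where 54.5% passed. ENSBTAG00000043559 had 0.0859%, 0.0841% and 0.095% of the total count with NC inhibitor and 0.106%, 0.2%, 0.236% and 0.229% in the control, with a log2 fold change of -1.34 ± 0.43 (SE, adjusted P = 0.108 in edgeR). ENSBTAG00000043564, with the shares given above, had -1.23 ± 0.40 (SE, adjusted P = 0.108 in edgeR). In both, every NC inhibitor pool was below every control pool, and control replicate 1 was the nearest to them. ENSBTAG00000043584 had 0.97 ± 0.46 and ENSBTAG00000043577 0.79 ± 0.37 (SE), with adjusted P of 0.187 and 0.184 in edgeR. Shares without overlap were found for 7 of the 15 ids higher with NC inhibitor (18.6% of all genes) and for 3 lower (8.06% of all genes).

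The calls of this comparison depended on control replicate 1 and on the method. Of the 15 abundant ids, DESeq2 called 2 DE (4.92% of all genes), the fit of the 2 groups alone 2 (5.57% of all genes) and limma voom 3 (19.2% of all genes). Without control replicate 1, 2 of the 15 were DE in edgeR in place of 0, where 14.2% of all genes were, and both were lower with NC inhibitor. ENSBTAG00000043559 then had a log2 fold change of -1.57 (adjusted P = 0.0226) and ENSBTAG00000043564 of -1.46 (adjusted P = 0.0228). Over 16 alternative fits the adjusted P of ENSBTAG00000043559 ranged from 1.24e-05 to 0.288, that of ENSBTAG00000043564 from 1.3e-05 to 0.288. The TMM normalization factors were 1.09 to 1.1 in the NC inhibitor pools and 0.912 to 1.08 in the control pools, which lowers the tested values of the former relative to the shares.

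MiR-34c inhibitor against NC inhibitor gave 0 of the 15 abundant ids at an unadjusted P under 0.05, where 4.06% of all genes had one, 3.02% higher and 1.04% lower. Without miR-34c inhibitor replicate 1 it was 2 of the 15, where 16.7% of all genes passed. The log2 fold changes of the 15 ids lay between -0.29 and 0.71, and no id was without overlap, where 2.75% of all genes were so and higher and 7.22% so and lower. None of the 15 was DE with DESeq2 (0% of all genes) or limma voom (1.39% of all genes). Against the control, 1 of the 15 abundant ids had an unadjusted P under 0.05, against 6.75% of all genes, 4.52% higher and 2.23% lower. Leaving out control replicate 1 gave a count of 4, of which 1 higher, against 15.9% of all genes in that fit. Leaving out miR-34c inhibitor replicate 2 gave 7, of which 4 higher, against 24.2%, and the median log2 fold change of the 15 went from -0.12 to 0.0095. Limma voom called 3 of the 15 DE, where 8.34% of all genes were. In the fit of all pools it was ENSBTAG00000043546, with 0.0268%, 0.0336% and 0.0316% of the total count, below all 4 control pools, and a log2 fold change of -0.81 ± 0.29 (SE, adjusted P = 0.72 in edgeR). Shares without overlap and lower were found for this id and for 1.34% of all genes, and higher for 0 of the 15 and 2.84% of all genes.

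MiR-34c mimic against miR-34c inhibitor gave 3 of the 15 abundant ids at an unadjusted P under 0.05, all higher with miR-34c mimic, where 4.05% of all genes passed, 1.18% higher and 2.87% lower. The count depended on single pools. It was 0 without miR-34c inhibitor replicate 1 (1.7% of all genes), 1 without miR-34c inhibitor replicate 3 (4.57%) and 5, of which 3 higher, without miR-34c inhibitor replicate 2 (22.8%). It was 6, of which 4 higher, without miR-34c mimic replicate 2 (15.2%), and 1 without miR-34c mimic replicate 1 (2.46%), 3 (2.85%) or 4 (2.56%). With only the 2 groups in the fit it was 1 (1.41%). Limma voom called 2 of the 15 DE, where 7.6% of all genes were. None of the 15 was without overlap, against 0.424% of all genes higher and 1.2% lower. In the fit of all pools the 3 were ENSBTAG00000043546 (log2 fold change 0.65 ± 0.27), ENSBTAG00000043563 (0.31 ± 0.13) and ENSBTAG00000043564 (0.82 ± 0.38, all SE), each with an adjusted P of 0.859 in edgeR. An interaction term set the change with miR-34c mimic from NC mimic against that with miR-34c inhibitor from NC inhibitor, and 0 of the 24 ids passed (0% of all genes). At an unadjusted P under 0.05 there was 1 of the 15, higher, against 3.24% of all genes, 1.25% higher and 1.99% lower. It was ENSBTAG00000043563 with a difference of 0.56 ± 0.20 (SE, log2 scale, adjusted P = 0.999 in edgeR).

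The 25 sparse ids held 59 to 320 counts in all per pool, which is 0.00216% to 0.00937% of a library. Between 12 and 23 of them had at least 1 count in a pool. Their summed share was 0.004% to 0.00559% in the control, 0.00344% to 0.00937% with miR-34c mimic and 0.00298% to 0.00329% with NC mimic. It was 0.00276% to 0.00786% with miR-34c inhibitor and 0.00216% to 0.00301% with NC inhibitor. Every NC mimic pool and every NC inhibitor pool was thus below every control pool. Of single genes tested 3.2% and 8.06% were so, which is no baseline for a sum over 25 ids. Of the 25 only 9 passed the filter, which depends on the level itself, so no count over the 9 is given as support. ENSBTAG00000043572 was picked out once the values were known, and had 3, 6 and 5 counts with NC inhibitor and 10, 11, 16 and 26 in the control. It had 3, 13 and 36 counts with miR-34c inhibitor, 8, 12 and 17 with NC mimic and 48, 35, 18, 16 and 14 with miR-34c mimic. Reads shared with copies of the mitochondrial genome in the nuclear chromosomes could add to or take from the counts of all 40 ids, and this was not tested.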

How the data were processed

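RNA of 18 blastocyst pools was extracted with a column kit and made into 5′-end mRNA libraries (modified Smart-seq3xpress). The authors deposited RSEM estimated counts per Ensembl gene as whole numbers, not normalized. The submitters' processing notes name ARS-UCD1.2, FastQC 0.11.9, cutadapt 3.7, STAR 2.7.10a, UMI-tools 1.1.4 and RSEM 1.3.3. The annotation release and counting options are not given in the sources used here. Treatments and replicate numbers came from the sample titles. Counts were analysed in R 4.3.3 with edgeR 4.0.16 (TMM normalization, filterByExpr by treatment, quasi-likelihood F test, treatment as the only term, all 18 pools in 1 fit). SE is the log2 fold change divided by the root of its F. Alternatives used DESeq2 1.42.0 and limma 3.58.1, and log2 CPM had a prior count of 2. Scripts were tested on simulated data. Shares are percentages of the total count. All 25 pairs of pools of one treatment differed beyond sampling noise (chi-square divided by its degrees of freedom at least 2.31 over all genes and 21.6 over the 15 abundant ids), so no pair was treated as copies of 1 library. This does not show that pools came from separate collections. The mitochondrial ids and the comparisons were chosen with earlier results of these data known. The ids described singly were to be those with at least 1% of the mitochondrial counts on average, 14 in number, with the most variable (ENSBTAG00000043584) and the steadiest (ENSBTAG00000043556) in full, and ENSBTAG00000043546 was added. The planned lists of nuclear genes and cell markers could not be matched to ids.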

Additional observations from a re-analysis of the deposited data

Results flagged for a closer look

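In the control (4 pools) and miR-34c mimic (5 pools) groups, a pool was set apart where its gap to the nearest other pool exceeded Dixon's 95% critical value for the group's range. Of 64 combinations of a measure and a group, 12 were set apart. Chance gives about 1 in 20 for measures chosen without their values, but the measures here share the same pools, and 2 of the 12 are ratios of a pair of ids chosen after its values were seen, so the number is not read against chance. Control replicate 1 was set apart in the share of ENSBTAG00000043561, with 1.96% of the total count against 1.11% to 1.12% in the other 3 pools. It was also set apart in ENSBTAG00000043577 (0.415% against at most 0.239%), in ENSBTAG00000043584 (0.524% against at most 0.226%) and, on the low side, in ENSBTAG00000043564 (0.188% against at least 0.385%). Of the mitochondrial counts ENSBTAG00000043564 made up 1.5% in this pool and at least 4.24% in the others. The ratio of ENSBTAG00000043584 to ENSBTAG00000043564 was 2.78 in control replicate 1 and at most 0.588 in the other control pools.

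MiR-34c mimic replicate 2 was set apart in the share of ENSBTAG00000043560 (0.973% of the total count against at most 0.615%) and of ENSBTAG00000043577 (0.672% against at most 0.31%). As a percentage of the mitochondrial counts it was set apart in ENSBTAG00000043558 (4.73% against at most 3.43%), in ENSBTAG00000043577 (5.1% against at most 2.88%) and in ENSBTAG00000043584 (5.53% against at most 2.82%). The ratio of ENSBTAG00000043584 to ENSBTAG00000043564 was 4.54 in this pool and at most 0.791 in the other miR-34c mimic pools. On the first principal component of the other genes these 2 pools had scores of -36.7 and -44.7, while the other control and miR-34c mimic pools had scores from 16.4 to 44.8. The cause was not tested.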

How the results depend on the processing

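The number of DE mitochondrial ids stayed at 0 in each pairwise comparison with median-of-ratios size factors, with library sizes taken without the mitochondrial ids, with no filter, with at least 10 counts in every library and with the adjusted p alone, and these fits, where made, also gave 0 across the 5 treatments. With limma voom and sample quality weights it was 2 for miR-34c mimic against NC mimic, 5 for miR-34c inhibitor against NC inhibitor, 3 for miR-34c inhibitor against control, 1 for NC mimic against control, 8 for NC inhibitor against control, 4 for miR-34c mimic against miR-34c inhibitor and 17 across the 5 treatments. The share of all genes DE in the same limma voom fit was 2.92%, 1.39%, 8.34%, 2.39%, 19.2%, 7.6% and 48.4%, in that order. With DESeq2 it was 1 for NC mimic against control, 3 for NC inhibitor against control and 5 across the 5 treatments, where 0.0361%, 4.92% and 0.875% of all genes were. With only the 2 groups in the fit, NC inhibitor against control gave 3 (5.57% of all genes) and the others 0. Leaving out each replicate gave 0 to 4 for that comparison, 4 being without control replicate 1, where 14.2% of all genes were DE, and 0 elsewhere. These counts include sparse ids that passed the filter on low counts, and are no support for a difference. With DESeq2, ENSBTAG00000043563 had an adjusted p of 7.19e-08 for miR-34c mimic against NC mimic at a log2 fold change of 0.66, under the fold threshold, and over 17 alternatives its adjusted p reached 0.987. The limma voom weights were 0.1965 in control replicate 1, 0.2045 in miR-34c mimic replicate 2, 0.3335 in miR-34c inhibitor replicate 1 and 0.2249 in its replicate 2. In the other pools they lay between 0.811 and 3.38. The part of these weights and any other cause of the differences between methods was not tested.

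With the replicate number as a block, 0 ids were DE in any comparison, and 3 of the 15 abundant ids had an unadjusted p under 0.05 across the 5 treatments in place of 5 (5.26% of all genes), 1 in place of 3 for miR-34c mimic against miR-34c inhibitor (2.21%), 4, none higher, in place of 6, 2 of them higher, for NC inhibitor against control (16.9%), and 3 in place of 1 for the interaction term (4.24%). Over 31 pairs of pools with the same number, the median correlation of deviations from the group means across genes was -0.0198. The correlations ranged from -0.807 to 0.638, with 9 above 0.1. Since the group means rest on 3 to 5 pools, this check cannot decide whether equal numbers mark related pools. Without the most abundant id the mean mitochondrial share was 7.24% in the control, 6.45% with NC mimic, 9.11% with NC inhibitor and 7.68% over all pools, where the id left out held 22.6% of the mitochondrial counts. The other 50 alternative values of the share and all 266 of the composition moved by less than 1 SD between pools. No fold change with an unadjusted p under 0.05 changed sign. Depth limits the sparse ids, most of which averaged under 10 counts per pool.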
